A study of Mus musculus with 3 samples.

Results

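The Ccl8 Cxcl13 Cd163 macrophages were 365 cells among 10457 barcodes that passed the gene and mitochondrial filters, out of 16627 barcodes deposited in 3 libraries. A barcode was a member when it had at least 500 genes and at most 15% of its UMIs (unique molecular identifiers, each standing for 1 captured RNA molecule) on mitochondrial genes. It also needed at least 5 UMIs of Tyrobp plus Fcer1g, the signalling adaptors of myeloid cells, and at least 0.1% of its UMIs on C1qa plus C1qb, chains of the complement recognition molecule C1q. The sum of Cd163, Ccl8 and Cxcl13 had to reach 3 UMIs, and Sftpc, a surfactant gene of alveolar type 2 (AT2) cells, had to stay under 4% of UMIs. These values chose the members, so the levels of these genes, and the differences of all other genes in the same cells, are descriptions with no test. The AT2-Tracer library held 286 members, BASC-Tracer 79 and Club-Tracer 0.

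Macrophages of the lung fall into alveolar macrophages, which live in the air space and clear surfactant, and interstitial macrophages, which live in the tissue around airways and vessels. Interstitial macrophages are known for C1q, for the mannose receptor Mrc1 and for the transcription factor Maf, and one kind of them carries the hyaluronan receptor Lyve1. CD163 is the scavenger receptor that takes up haemoglobin bound to haptoglobin. CCL8 is a chemokine that attracts monocytes and T cells, and CXCL13 is the ligand of CXCR5 that attracts B cells into follicles. In lungs injured by the fibrosis-inducing drug bleomycin, monocyte-derived macrophages with Spp1, Gpnmb and Mmp12 also fill the tissue.

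All 3 libraries came from lungs of Scgb1a1-CreER;Sftpc-DreER;R26-TLR mice, 4 weeks after bleomycin. CreER is driven by Scgb1a1, the secretoglobin of club cells, and DreER by Sftpc, so the labels are meant for epithelium, and the submitters name the cells epithelial. Cells were sorted by colour into ZsGreen only (AT2-Tracer), tdTomato only (Club-Tracer) and both (BASC-Tracer, for bronchioalveolar stem cells). Each label had 1 library, uninjured lungs were not analysed here, and the sex, age and number of the animals are not given in the sources used here, so no difference between libraries has a replicate check.

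The libraries held 29013077 to 72256580 UMIs over 32287 features, and 1402 to 5859 barcodes were kept in each, with library medians of 9682 to 15406 UMIs. Members had a median of 5758 UMIs (1073 to 29260) and 2040 genes in the AT2-Tracer library, against 8286 UMIs and 2433 genes in the other C1q-high macrophages, which met every part of the rule but the sum of the 3 genes. In the BASC-Tracer library the medians were 9986 UMIs (1398 to 28996) for members and 13090 UMIs for the 10 other C1q-high macrophages. The libraries shared 73, 122 and 94 barcode sequences in pairs, in no case with a member on both sides, and with 2, 0 and 3 barcodes that were a member in one of them. Scrublet marked 10 of the 286 and 2 of the 79 members as doublets.

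The promoters of the 3 selecting genes are shown because members were chosen on these transcripts. Each run is the 250 bases before the RefSeq start site on GRCm38.p6, plus strand. Capitals mark TGCTGA or its reverse complement TCAGCA, the short element bound by MAF factors, and TATAAA, the TATA box. The windows are chr11:82114935-82115184 for Ccl8, chr5:95956689-95956938 for Cxcl13 and chr6:124304401-124304650 for Cd163.
Ccl8: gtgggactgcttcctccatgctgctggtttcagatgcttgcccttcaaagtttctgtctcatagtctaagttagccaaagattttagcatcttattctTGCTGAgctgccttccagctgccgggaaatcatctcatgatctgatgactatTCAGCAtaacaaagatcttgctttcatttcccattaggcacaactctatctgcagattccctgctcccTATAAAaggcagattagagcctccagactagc
Cxcl13: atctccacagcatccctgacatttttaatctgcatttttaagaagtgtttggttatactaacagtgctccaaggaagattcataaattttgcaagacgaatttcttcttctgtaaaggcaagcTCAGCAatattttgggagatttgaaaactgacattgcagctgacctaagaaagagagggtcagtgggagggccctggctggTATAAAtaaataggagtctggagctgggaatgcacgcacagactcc
Cd163: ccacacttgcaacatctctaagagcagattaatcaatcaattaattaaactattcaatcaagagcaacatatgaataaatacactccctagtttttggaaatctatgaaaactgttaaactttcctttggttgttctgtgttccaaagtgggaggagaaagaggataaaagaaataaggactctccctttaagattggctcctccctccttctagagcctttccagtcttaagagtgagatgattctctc

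Short motifs were searched on both strands of these windows. TGCTGA occurred 2 times in the Ccl8 window (first bases at -152 and, on the reverse strand, -100 from the start site), 1 time in the Cxcl13 window (-127, reverse strand) and not in the Cd163 window, and 16.1% of 32851 mouse promoter windows of the same length hold it. TATAAA stood at -32 in Ccl8 and at -46 in Cxcl13, and 12.4% of windows hold it. GGAAGT, a core of the PU.1 motif, is held by 19.7% of windows, and the interferon response element, searched as 2 runs of GAAA with 2 bases between them, by 2.98%; neither was in the 3 windows. These matches describe letters, not binding.

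In the AT2-Tracer library Ccl8 (ENSMUSG00000009185, chromosome 11, 82115185 to 82116799, mm10) summed to 3673 CPM over the members (CPM, the summed counts scaled to 1000000 UMIs per class; exact Poisson 95% interval 3586 to 3761), against 14.7 CPM (11.7 to 18.2) in the other C1q-high macrophages and 2.27 CPM in the Chil3-high alveolar class. Cxcl13 (ENSMUSG00000023078, chromosome 5, 95956951 to 95961068) stood at 1163 CPM (1115 to 1214), 2.28 CPM and 1.31 CPM in the same order. Cd163 (ENSMUSG00000008845, chromosome 6, 124304656 to 124330527) stood at 949.6 CPM (906 to 995), 6.30 CPM and 0.239 CPM. In the BASC-Tracer members the levels were 7782 CPM for Ccl8, 2719 CPM for Cxcl13 and 1905 CPM for Cd163. The other C1q-high macrophages of that library had 3 UMIs of Ccl8 (19.5 CPM) and 0 UMIs of Cxcl13 and Cd163. All intervals cover counting error only, and not the spread between cells or animals.

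Single members ranged widely. Ccl8 ran from 0 to 271 UMIs with a median of 7 in the AT2-Tracer members and from 0 to 570 with a median of 41.0 in the BASC-Tracer members. Cxcl13 ran from 0 to 227 with a median of 0, and from 0 to 424 with a median of 3.00. Cd163 ran from 0 to 42 with a median of 4.00, and from 0 to 74 with a median of 17.0. Cxcl13 was thus the most uneven of the 3, carried by a part of the members at high counts, while C1qa was found in 285 of 286 and in 79 of 79 members.

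**Figure D1:**
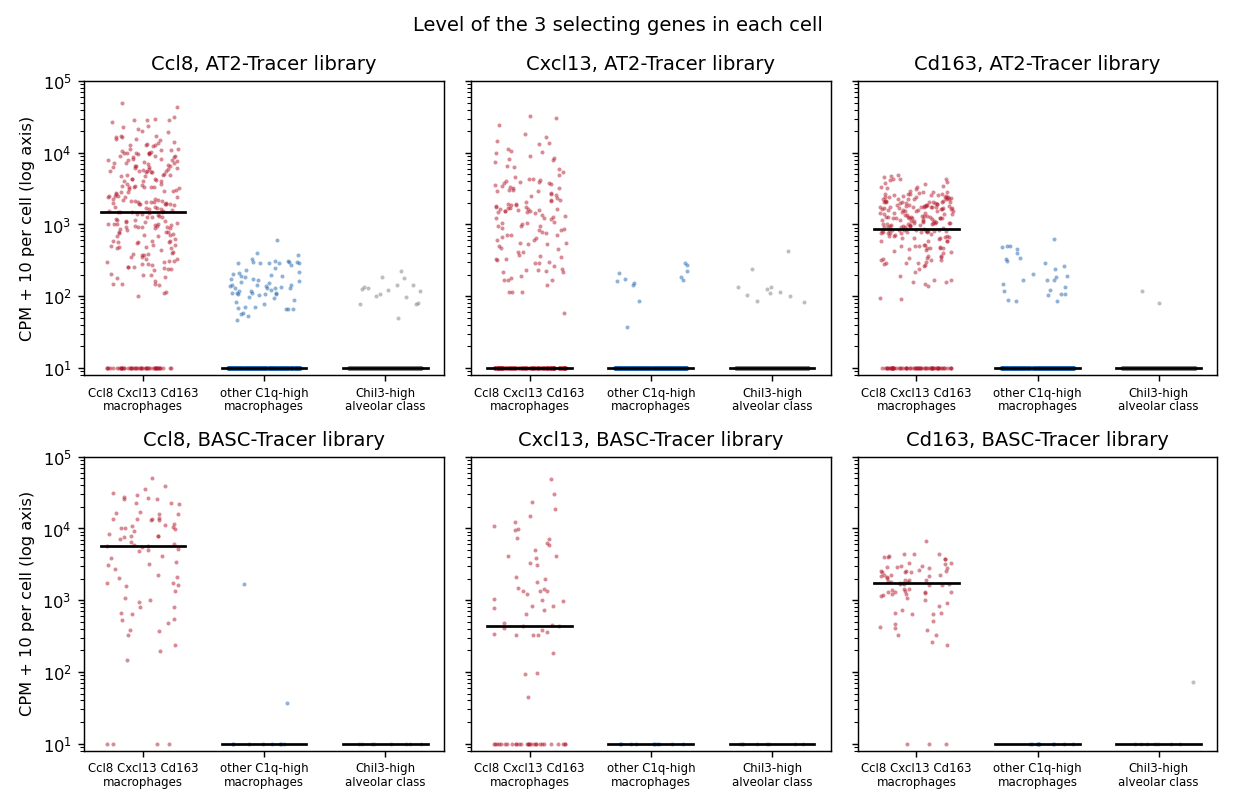
Each point is 1 cell and the vertical axis is its CPM + 10 on a log axis for Ccl8, Cxcl13 and Cd163 in the AT2-Tracer and BASC-Tracer libraries; black lines are medians. In the AT2-Tracer library the median member sits at 0 for Cxcl13 and well above 0 for Ccl8 and Cd163; the separation from the other classes is fixed by the rule.

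At a depth of 3000 UMIs per cell, 79.0% of 252 AT2-Tracer members had a UMI of Ccl8, 37.3% of Cxcl13 and 71.4% of Cd163 (34 shallower members were left out; without thinning 83.2%, 45.8% and 77.6%). In epithelial cells of the library, which should lack these genes and so show free RNA, the thinned shares were 0.597%, 0.298% and 0.0853% of 2346 cells. Their median was 16288 UMIs before thinning, so thinning took away a larger part of their UMIs than of the members'. Without thinning 59, 31 and 10 of 2417 epithelial cells had a UMI of Ccl8, Cxcl13 and Cd163. In the BASC-Tracer members the thinned shares were 87.1%, 60.0% and 92.9% of 70 cells, against 0.625%, 0.625% and 0 of 800 epithelial cells. Unthinned, 27, 16 and 2 of 818 epithelial cells of that library had a UMI.

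The 3 genes did not always occur together. Of the 286 AT2-Tracer members, 52 (18.2%, exact Clopper-Pearson 95% interval 13.9 to 23.1) had at least 3 UMIs of all 3 genes, and 68 (23.8%) had Ccl8 and Cd163 at that level without Cxcl13. Ccl8 alone marked 62 members (21.7%), Cd163 alone 55 (19.2%), Ccl8 with Cxcl13 26 (9.09%), Cxcl13 alone 12 (4.20%) and Cxcl13 with Cd163 9 (3.15%). The remaining 2 members met the rule only through the sum. Among BASC-Tracer cells 38 of 79 members (48.1%, 36.7 to 59.6) carried all 3 genes and 26 (32.9%) carried Ccl8 with Cd163. Of the others, 7 carried Ccl8 alone, 3 Cd163 alone, 2 Ccl8 with Cxcl13, 1 Cxcl13 with Cd163 and 1 Cxcl13 alone, and 1 met the rule only through the sum. BASC-Tracer members were deeper (medians of 9986 and 5758 UMIs), and the part of depth in this difference was not tested.

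**Figure D2:**
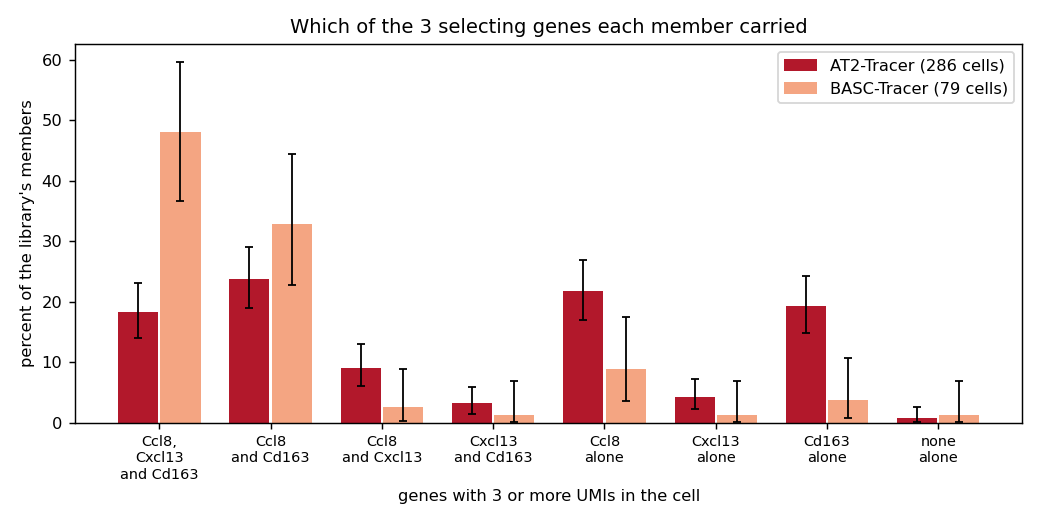
Bars give the percent of each library's members that had 3 or more UMIs of each combination of Ccl8, Cxcl13 and Cd163, with exact 95% binomial intervals (counting error only). All 3 genes together were the largest class in the BASC-Tracer library (48.1%), and the AT2-Tracer members were spread over 4 combinations between 18.2% and 23.8%.

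Members with different combinations differed in other genes. Among AT2-Tracer members, Lyve1 stood at 500.1 CPM in cells with all 3 genes and 406 CPM in cells with Ccl8 and Cd163, but at 60.0 CPM with Cd163 alone, 4.37 CPM with Ccl8 alone (2 UMIs) and 0 UMIs with Cxcl13 alone. Ednrb, the endothelin B receptor, ran in the same order, at 713, 345, 192, 37.2 and 0 CPM. C4b, complement component 4, stood at 1340.4 CPM with all 3 genes and 267 CPM with Ccl8 alone. Gpnmb, a glycoprotein of lipid-laden macrophages, stood at 706 CPM with Ccl8 alone (31 of 62 cells with a UMI) against 38.5 CPM with all 3 genes (4 of 52 cells), 87.0 CPM with Cd163 alone and 0 UMIs with Cxcl13 alone. In the other C1q-high macrophages Lyve1 was at 2.28 and Gpnmb at 916 CPM, near the levels with Ccl8 alone. Other genes of the cells with Ccl8 alone stood apart from that class: Selenop was at 3537 against 1332 CPM, Mrc1 at 802 against 388 CPM, F13a1 at 376 against 144 CPM and Spp1 at 995 against 4627 CPM. Lyve1 among the BASC-Tracer members was at 495 CPM with all 3 genes and 69.7 CPM in the 7 cells with Ccl8 alone, in which Gpnmb stood at 4951 CPM, from 2 cells.

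The levels also differed with the number of UMIs of the 3 genes in the AT2-Tracer library. The 479 C1q-high macrophages without a UMI of the 3 genes had Mrc1 at 361 CPM, F13a1 (coagulation factor XIII A, a macrophage gene) at 111 CPM and Spp1 (osteopontin) at 4983 CPM. The 34 cells just outside the rule, with 2 UMIs, had 811, 442 and 2042 CPM. The 20 cells just inside it, with 3 UMIs, had 801, 439 and 1087 CPM, and the 189 cells with 10 or more had 2132, 1441 and 891 CPM. The cells with 2 and with 3 UMIs therefore resembled each other in Mrc1 and F13a1. Spp1 did not fall evenly, at 606 CPM in the 13 cells with 4 UMIs and 748 CPM in the 64 cells with 5 to 9. Outside the rule through 1 other part only, 34 AT2-Tracer barcodes missed the Tyrobp and Fcer1g minimum, 8 the gene minimum, 4 the C1q minimum, 4 the Sftpc limit and 2 the mitochondrial limit. Among BASC-Tracer barcodes 14 missed the Tyrobp and Fcer1g minimum, 2 the Sftpc limit and 2 the mitochondrial limit.

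Members made up 33.1% (30.0 to 36.4) of the 864 C1q-high macrophages of the AT2-Tracer library and 88.8% (80.3 to 94.5) of the 89 in the BASC-Tracer library. As a share of all kept barcodes they were near each other, at 4.88% (4.34 to 5.46) and 5.63% (4.49 to 6.97). The libraries therefore differed in the other macrophages: the AT2-Tracer library held 578 other C1q-high and 807 Chil3-high cells, the BASC-Tracer library 10 and 8. The Club-Tracer library had no member among 3196 kept barcodes, which allows a share of up to 0.0939% if 3 counts are taken as the limit (the exact 95% upper bound is 0.115%), and held 40 barcodes with the Tyrobp and Fcer1g minimum, 2 of them C1q-high. The sort set the colour of each library, so these shares are shares of sorted cells and not of lung macrophages.

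Of the general macrophage genes given here, all but Csf1r stood in members at levels near those of the other C1q-high cells. In the AT2-Tracer library C1qc was at 4173 CPM in members and 3147 CPM in the others, the phagosome protein gene Cd68 at 1029 and 1164 CPM, Adgre1 (F4/80) at 219.8 and 195 CPM, the leukocyte phosphatase Ptprc (CD45) at 374 and 309 CPM, and Apoe at 36592 and 38657 CPM. Csf1r, the receptor for the macrophage growth factor CSF1, stood at 1200.1 and 537 CPM, a ratio of 2.24 (exact conditional 95% interval 2.12 to 2.36). In the whole comparison, 174 of 3082 genes with at least 50 CPM in either class (5.65%) were 2-fold or more higher in members. Another 105 (3.41%) were 2-fold or more lower, 9.05% in all. The scale was log2((CPM + 5)/(CPM + 5)), which understates differences of low genes. These counts mark size and not significance.

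Apart from the rule genes, the gene that stood furthest above the other C1q-high macrophages on this scale was Ednrb, at 282 CPM against 4.38 CPM (64.5-fold, 43.2 to 101). Lyve1 stood at 213 against 2.28 CPM (93.5-fold, 54.0 to 177), with a UMI in 94 of 286 members and 5 of 578 others. The galactose-binding lectin Clec10a was at 285 against 12.3 CPM, the complement receptor Vsig4 at 164 against 5.95 CPM, and C4b at 763 against 51.1 CPM. C4b has a close copy in the mouse, C4a, so its reads may be split between them. C6, a component of the terminal complement complex, was at 101 against 3.15 CPM, Bmp2, a bone morphogenetic protein, at 165 against 11.0 CPM, and Chp2, which encodes a calcineurin-like calcium-binding protein, at 104 against 4.73 CPM. The lectins Cd209f (122 UMIs against 1, 375-fold with an interval of 66.1 to 14946) and Cd209b (111 UMIs against 1, 342-fold, 60.0 to 13609) had 1 UMI each in the 578 other C1q-high cells, and belong to a family of similar genes between which reads may be split.

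The matrix genes Mgp and Sparcl1 were also among these 12 genes, but 1 cell held most of their UMIs. That cell, with 29260 UMIs, held 1231 of the 1283 Mgp UMIs and 290 of the 295 Sparcl1 UMIs of the AT2-Tracer members, along with 833 of 845 UMIs of elastin (Eln) and 153 of 159 of Col1a1. It also had 41 UMIs of C1qa and 6 of Cd163. Without it Mgp fell from 691 to 28.5 CPM and Sparcl1 from 159 to 2.74 CPM.

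In the BASC-Tracer library all 12 genes lay on the same side, but only 10 reached 50 CPM in either class. Mgp and Sparcl1 stood at 33.4 and 3.45 CPM in its members, so their side tells little. The 10 genes were 2-fold or more higher in members, where 21.1% of 3448 genes were higher and 9.51% lower. The second class there has only 10 cells with 153653 UMIs in all, so single cells weigh on these ratios. Ednrb stood at 623 CPM against 0 UMIs (at least 31.9-fold higher, taking 3 UMIs over the class as the floor; the exact 95% lower bound of the ratio is 25.8), Lyve1 at 402 CPM against 0 UMIs (at least 20.6-fold higher on that floor, exact lower bound 16.6), and C4b at 1444 CPM against 2 UMIs (111-fold, 30.7 to 917).

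Of 19 measured genes of a list for interstitial macrophages, 14 were 2-fold or more higher in the AT2-Tracer members and 0 lower, with a median log2 ratio of 2.17 against 0.06 over all genes tested. Maf stood at 499 against 88.9 CPM (5.61-fold, 5.03 to 6.26), F13a1 at 1189.9 against 144 CPM, the platelet factor gene Pf4 at 937 against 159 CPM, Gas6, the ligand of the clearance receptors Axl and Mertk, at 423 against 71.4 CPM, and Selenop, the selenium carrier, at 4714 against 1332 CPM. Folr2, a folate receptor, was at 199 against 44.8 CPM. Igf1, Ms4a7, C1qc and Cx3cr1 (173 against 178 CPM) were among those within 2-fold. The BASC-Tracer library had 14 of 18 measured genes higher and 1, Cx3cr1, lower (49.5 against 234 CPM). Of all genes tested, 5.65% were higher and 3.41% lower in the AT2-Tracer library. In the BASC-Tracer library these shares were 21.1% and 9.51%, so the 2 counts stand on unlike backgrounds. The list was chosen with results of these data known.

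**Figure D3:**
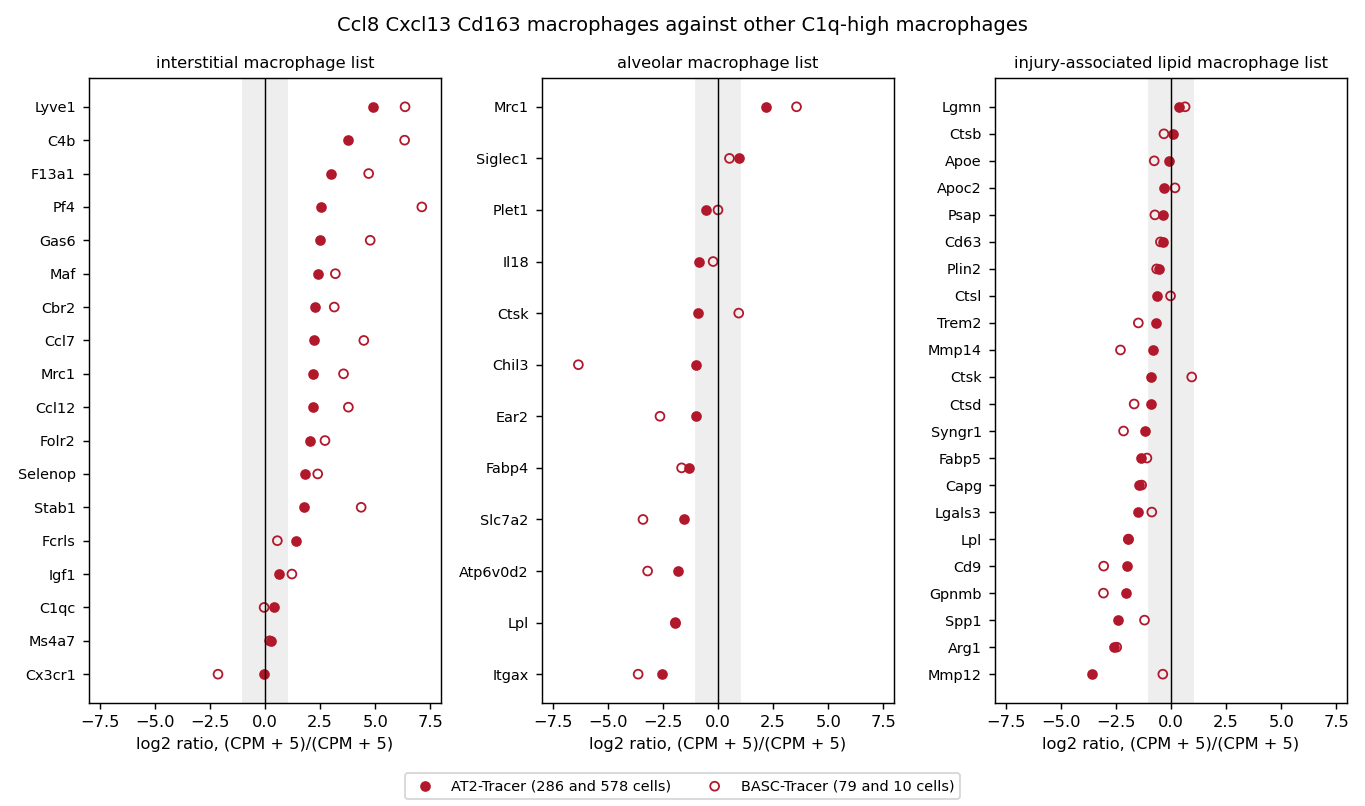
Points give the log2 ratio of CPM + 5 in members to CPM + 5 in other C1q-high macrophages for the genes of 3 lists with at least 50 CPM in the AT2-Tracer library; filled points are the AT2-Tracer library, open points the BASC-Tracer library, and the grey band is under 2-fold. 1 interstitial gene within the band is not drawn. In the interstitial list 14 genes lie to the right of the band in the AT2-Tracer library, and in the injury-associated lipid list 10 of 22 lie to its left.

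Scavenger receptors and complement genes were also higher in part, but these lists share genes with the interstitial list. Mrc1, Stab1, Lyve1 and Folr2 are in the interstitial and scavenger lists, and C4b and C1qc in the interstitial and complement lists. Vsig4 is in the scavenger and complement lists, so the counts are not separate evidence. Of 18 measured scavenger and endocytic receptors 9 were 2-fold or more higher and 0 lower (median 0.99). Among all genes tested 5.65% were higher and 3.41% lower. Mrc1 stood at 1789.9 against 388 CPM (4.61-fold, 4.37 to 4.87), the endothelial and macrophage scavenger receptor Stab1 at 506 against 146 CPM, Colec12 at 117 against 26.8 CPM, and the ficolin Fcna at 508 against 60.2 CPM. Of 11 measured complement genes 5 were higher and 1 lower: properdin (Cfp), which stabilises the alternative pathway convertase, stood at 128 against 58.8 CPM and C3 at 99.1 against 22.4 CPM, while the integrin gene Itgax (CD11c) was lower at 30.7 against 203 CPM.

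Ccl8 lies in a run of chemokine genes on chromosome 11 of mm10, all on the plus strand up to Ccl8: Ccl2 (82035571 to 82037453), Ccl7 (82045712 to 82047525), Ccl11 (82057823 to 82062955), Ccl12 (82101845 to 82103400) and Ccl8 (82115185 to 82116799). In AT2-Tracer members Ccl2 stood at 2948 CPM against 754 CPM in the other C1q-high macrophages (3.91-fold, 3.76 to 4.07), Ccl7 at 2442 against 518 CPM (4.72-fold, 4.50 to 4.94) and Ccl12 at 813 against 177 CPM (4.60-fold, 4.24 to 4.98). These are attractants of monocytes. Ccl11, the eosinophil attractant that lies between them, had 2 UMIs in the members (1.08 CPM) and 7 in the others. Ccl1, the next chemokine gene beyond Ccl8, had 0 UMIs in both. In the BASC-Tracer library Ccl2 stood at 2837 against 215 CPM, Ccl7 at 2432 against 104 CPM and Ccl12 at 869 against 58.6 CPM, so these 3 neighbours were higher in members of both libraries.

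**Figure D4:**
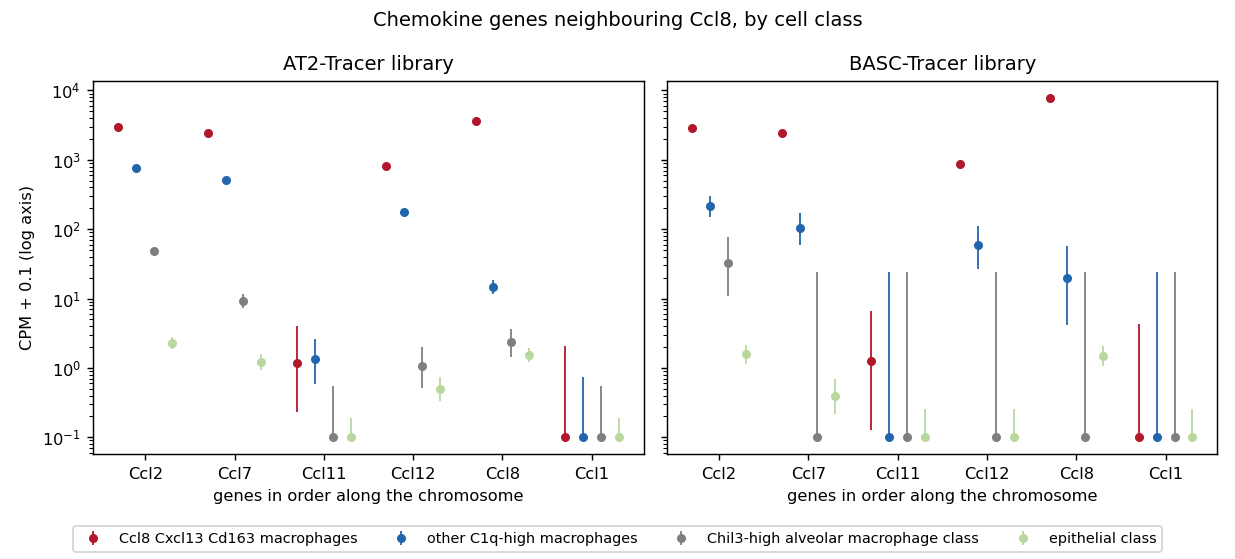
Points are CPM + 0.1 (log axis) with exact Poisson 95% intervals for chemokine genes in chromosome order, in 4 classes of the AT2-Tracer and BASC-Tracer libraries. Ccl2, Ccl7, Ccl12 and Ccl8 stand between 813 and 7782 CPM in members, and Ccl11 and Ccl1 stand at or near 0 in every class.

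Over the whole list of chemokine ligands without Ccl8 and Cxcl13, 6 of 16 measured were 2-fold or more higher and 1 lower (median 0.78). The shares over all genes were 5.65% and 3.41%. Besides Ccl2, Ccl7, Ccl12 and Pf4 the higher ligands were Ccl3 (1924 against 789 CPM) and the eosinophil attractant Ccl24 (68.4 against 12.8 CPM). Ccl17, a ligand of CCR4, was lower (28.0 against 63.4 CPM). Cxcl2, a neutrophil attractant, was near equal at 10039 and 8470.1 CPM. Of the 9 chemokine receptors listed only 4 reached 50 CPM, and none of these passed 2-fold. Over all genes 9.05% did, so a count of 0 among 4 tells little about receptors.

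Genes of injury-associated, lipid-handling macrophages were lower in members: 10 of 22 by 2-fold or more and 0 higher (median -0.92), against 3.41% lower and 5.65% higher over all genes. Mmp12, macrophage elastase, stood at 52.2 against 677 CPM (a ratio of 0.0772, 0.0624 to 0.0944), with a UMI in 7 of 286 members and 190 of 578 others. Spp1 was at 866 against 4627 CPM (5.35-fold lower, 5.08 to 5.63), Arg1, which breaks down arginine, at 39.9 against 264 CPM, Gpnmb at 217 against 916 CPM and the tetraspanin Cd9 at 239.7 against 982 CPM. The lipid receptor gene Trem2 (580 against 945 CPM) and Apoe were within 2-fold. The BASC-Tracer library had 11 of 22 lower and 1 higher, where 9.51% of all genes tested were lower and 21.1% higher. Gpnmb stood there at 346 against 2935 CPM and Spp1 at 1369.6 against 3143 CPM. Mmp12 was at 215 against 279.9 CPM, but all 187 UMIs of the members came from 1 cell.

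The other genes furthest below the comparison class in the AT2-Tracer library were Itgax, the interleukin 7 receptor gene Il7r (10.8 against 81.6 CPM), the calcium-binding S100a4 (107 against 584 CPM), Pdpn, encoding podoplanin (28.5 against 162 CPM), F7, encoding coagulation factor VII (18.9 against 111 CPM), the leukocyte actin-binding Lsp1 (58.7 against 270.5 CPM), Cytip (14.5 against 75.5 CPM) and Mfge8, a bridge to dying cells (35.0 against 158 CPM). Together with Mmp12, Arg1, Spp1 and Gpnmb these 12 genes lay on the same side in the BASC-Tracer library. There 11 of them reached 50 CPM and 9 were 2-fold or more lower, where 9.51% of 3448 genes were lower. Of 12 alveolar macrophage genes measured in the AT2-Tracer library, 6 were 2-fold or more lower and 1, Mrc1, higher (median -0.99). Among all genes tested in that library 3.41% were lower and 5.65% higher. Lpl, the lipoprotein lipase, was at 103 against 409 CPM and Fabp4 at 60.3 against 158 CPM.

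The shares over all genes tested were 5.65% higher and 3.41% lower. Among cytokines and growth factors 2 of 19 measured were higher and 5 lower. The higher ones were Gas6 and Retnla (202 against 15.6 CPM), a secreted product of alternatively activated macrophages of which 1 cell held 134 of 375 UMIs. The lower ones were Spp1, fibronectin (Fn1, 367 against 1066 CPM), Il1b (908 against 2426 CPM), Vegfa (30.7 against 90.0 CPM) and the interleukin 1 antagonist Il1rn (190.1 against 399 CPM). In the alternative activation list 7 of 12 were higher and 3 lower, the latter being Arg1, Tgm2 and Ccl17, so this list was split.

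Over all 3082 genes tested, 5.65% were 2-fold or more higher in members and 3.41% lower. Of 13 measured iron genes, 4 were 2-fold or more higher and 0 lower, the latter near the share of all genes. The higher ones were the haem-degrading enzyme Hmox1 (824 against 305 CPM) and the iron exporter Slc40a1 (63.0 against 6.83 CPM, 9.23-fold, 6.37 to 13.6). The others were the ferroxidase ceruloplasmin Cp (121 against 12.8 CPM) and the transferrin receptor Tfrc (57.6 against 12.8 CPM). Of 19 interferon-inducible genes only 6 reached 50 CPM in either class, and 3 of these 6 were higher, led by Ifitm3 (548 against 77.6 CPM). Of 17 transcription factors, Maf, Klf4 (861 against 353 CPM) and Atf3 (1472 against 587 CPM) were higher and Bhlhe40 lower (128 against 343 CPM). Immediate early and heat shock genes, which cells switch on quickly after stimulation or stress, had 5 of 14 higher and 0 lower (median 0.76), with Egr1 at 1635 against 531 CPM and Jun at 2122 against 874 CPM. The lysosome list stayed level, with 1 of 22 lower (Atp6v0d2).

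MHC class II genes varied among members and between the libraries. In the AT2-Tracer library H2-Aa stood at 2199 CPM in members and 3147 CPM in the others. None of the 11 measured genes of the antigen presentation list passed 2-fold, where 9.05% of all genes did. Per cell, the sum of H2-Aa, H2-Ab1 and H2-Eb1 had a median of 226 CPM and reached 58836 CPM, with 112 of 286 members (39.2%) at 0. In the other C1q-high cells the median was 892 CPM and 23.4% were at 0. By combination, H2-Aa stood at 8393 CPM in the 12 members with Cxcl13 alone and 5086 CPM in the 26 with Ccl8 and Cxcl13, against 852 CPM in the 52 with all 3 genes, where 1 cell held 172 of 288 UMIs. It stood at 200 CPM (11 UMIs) in the 9 members with Cxcl13 and Cd163, 2938 CPM with Ccl8 alone, 1462 CPM with Ccl8 and Cd163 and 1382 CPM with Cd163 alone, so the level did not follow Cxcl13 across the combinations.

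In the BASC-Tracer members the same sum had a median of 0 and a highest value of 1726 CPM, with 52 of 79 cells (65.8%) at 0, though these cells were deeper. H2-Aa stood at 94.4 CPM there, which made it 23.3-fold higher (18.7 to 29.4) in the AT2-Tracer members, and H2-Eb1 was 55.2-fold higher (29.9 to 115) and H2-Ab1 23.4-fold higher (17.4 to 32.3). At 3000 UMIs per cell 42.5% of AT2-Tracer and 18.6% of BASC-Tracer members had a UMI of H2-Aa, without thinning 49.3% and 24.1%. The share in epithelial cells, which express H2-Aa themselves, was 57.0% and 28.8%. In the other macrophages of the BASC-Tracer library 6 of 8 other C1q-high cells (95% interval 34.9% to 96.8%) and 5 of 8 Chil3-high cells (24.5% to 91.5%) had one, against 58.2% and 25.3% of these classes in the AT2-Tracer library. No class here is known to lack H2-Aa, so these shares give no background level.

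**Figure D5:**
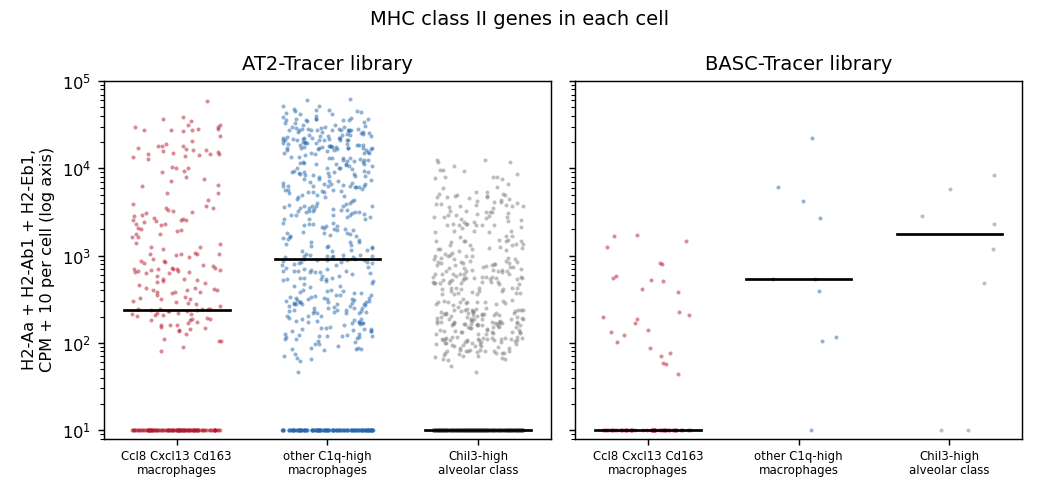
Each point is 1 cell and the vertical axis is the summed CPM + 10 of H2-Aa, H2-Ab1 and H2-Eb1 on a log axis, by class, in the AT2-Tracer and BASC-Tracer libraries; black lines are medians. AT2-Tracer members spread from 0 to 58836 CPM, and no BASC-Tracer member lies above 1726 CPM.

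Between the members of the 2 libraries, 53 of 3218 genes (1.65%) were 2-fold or more higher in the BASC-Tracer cells and 72 (2.24%) lower, 3.88% in all. This compares 1 library with another. The interstitial list had 1 of 19 higher, Selenop (10834 against 4714 CPM), and 1 lower, Cx3cr1 (49.5 against 173 CPM). Higher as well were Vsig4 (479.9 against 164 CPM) and Pros1, encoding protein S (276 against 133 CPM). The antigen presentation list had 6 of 11 lower, and the alveolar list 5 of 8 lower. Chil3, a chitinase-like protein abundant in alveolar macrophages, was at 13.8 CPM against 1151 CPM (83.3-fold higher in the AT2-Tracer members, 47.6 to 162), and Marco, an alveolar scavenger receptor, at 0 UMIs against 44.2 CPM. The Chil3-high class was 807 cells in the AT2-Tracer and 8 in the BASC-Tracer library, and the part of free RNA in the Chil3 level was not tested. The airway genes Scgb1a1 (8040.5 against 30.2 CPM) and Cyp2f2 (63 against 0 UMIs, at least 44.9-fold higher over the class floor of 3 UMIs) were the largest differences the other way. One cell held 6157 of the 6986 Scgb1a1 UMIs, and without it Scgb1a1 stood at 987 CPM. The other macrophages also differed between the libraries: Scgb1a1 was at 540.2 CPM in the other C1q-high and 439.7 CPM in the Chil3-high cells of the BASC-Tracer library, against 21.7 and 25.5 CPM in the AT2-Tracer library. Epithelial cells had 82038 and 1641 CPM of it, and the part of free RNA was not tested. For Cyp2f2, 1 BASC-Tracer cell held 44 of the 63 UMIs, and the log2 ratio fell from 3.95 to 2.43 without it. The lower matrix genes Eln and Sparcl1 rest on the 1 collagen-rich AT2-Tracer cell, and the higher Mmp12 and Clu (91 of 106 UMIs) on 1 BASC-Tracer cell each.

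Against the Chil3-high alveolar class of the AT2-Tracer library, 495 of 3336 genes (14.8%) were 2-fold or more higher in members and 368 (11.0%) lower, and C1q and Chil3 are part of how this class was cut. All 19 measured interstitial genes were higher and 16 of 18 alveolar genes lower. Ccl7 was 266-fold higher (212 to 337), Ccl12 852-fold higher (431 to 1976), Stab1 530-fold higher (268 to 1231), the adhesion molecule Vcam1 461-fold higher (249.6 to 964), and Ms4a4a, a membrane protein of macrophages, 248-fold higher (156 to 419.5). Carbonic anhydrase 4 (Car4) stood at 18.3 against 678 CPM, Plet1 at 49.6 against 1383 CPM, Marco at 44.2 against 1045 CPM, the growth factor Ereg at 9.70 against 313 CPM and S100a8 at 40.4 against 1047 CPM. Chil3 itself was at 1151 against 27155 CPM, with a UMI in 123 of 286 members.

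Markers of other cells were low in most members. All 8 mast cell and basophil markers had 0 UMIs in members of both libraries. The 10 B and plasma cell markers summed to 9.16 CPM in the AT2-Tracer and 5.75 CPM in the BASC-Tracer members, the 11 T and NK cell markers to 22.1 and 47.2 CPM, and the 12 endothelial markers other than Lyve1 to 43.1 and 27.6 CPM, with Cdh5 at 0 in both. The 19 epithelial markers summed to 2343 CPM (median cell 1522 CPM) in the AT2-Tracer members and 9304 CPM (median cell 1500.4 CPM) in the BASC-Tracer members, or 2102 CPM without the cell with most. In the other C1q-high macrophages of the AT2-Tracer library they summed to 3284 CPM. The 13 fibroblast markers summed to 1019 CPM in AT2-Tracer members, 53.9 CPM without the collagen-rich cell.

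The reporters used for the sort were scarce in members. ZsGFP stood at 157 CPM in AT2-Tracer members, with a UMI in 92 of 286, and at 731 CPM in BASC-Tracer members, with a UMI in 24 of 79 and 296 of 635 UMIs in 1 cell. At 3000 UMIs per cell 17.9% and 12.9% of members had a ZsGFP UMI, against 98.5% and 95.5% of epithelial cells in the same libraries. The other C1q-high and Chil3-high cells of the AT2-Tracer library, at 16.4% and 13.4%, were near the members. The tdT reporter had 0 UMIs in AT2-Tracer members, and 2.86% of thinned BASC-Tracer members had one, against 78.6% of epithelial cells. The members therefore lay in colour-sorted libraries with reporter transcripts well below those of the epithelial cells, and the cause was not tested.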

How the data were processed

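Droplet-based 5' single-cell libraries were made from sorted lung cells, per the labels' protocols. The deposited matrices hold UMI counts per gene and barcode, made by the authors with Cell Ranger 6.1.1 on mm10, per the submitters' processing notes; the gene annotation release they used was not stated there. Gene coordinates come from GENCODE on GRCm38 and promoters from RefSeq. The steps here used Python 3.11.15, numpy 2.4.6, scipy 1.17.1, pandas 2.3.3, scanpy 1.11.5 and matplotlib 3.10.9.

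Counts were summed over the cells of a class in 1 library and scaled to CPM. Intervals were exact Poisson for CPM, exact conditional for ratios and Clopper-Pearson for shares, all at 95% and for counting error only. Genes with at least 50 CPM in either class were counted as higher or lower at 2-fold with 5 CPM added. No test was made, because the rule chose the cells by expression and each label has 1 library. Shares of cells with a UMI were compared after thinning to 3000 UMIs. The Chil3-high alveolar class had under 0.1% C1qa plus C1qb and at least 0.1% Chil3, with the other parts of the rule except the 3-gene sum. Epithelial cells had at least 2 Epcam UMIs and at most 1 UMI of Tyrobp plus Fcer1g.

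The genes named were the 12 with the highest and 12 with the lowest ratio among genes with 50 CPM and 30 UMIs in the higher class, 6 a side in the alveolar and between-library comparisons, and up to 5 at each end of each list, leaving out mitochondrial, ribosomal, hemoglobin, predicted, immunoglobulin, sex-linked and T cell receptor genes. Combination subsets were described by genes chosen after their values were seen. Members and lists were chosen with earlier results of these data known. Doublets were marked with Scrublet but kept; its automatic threshold marked 0.0300% and 0.139% of Club-Tracer and BASC-Tracer barcodes, where the highest-scoring 89 and 17 were marked instead, and 1.68% of AT2-Tracer barcodes. The comparison script was tested on simulated data. Alternatives changed the rule, the filters, the pseudocount and the scaling one at a time. Genes of the lists that are not reported here are still counted in the list totals.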

Additional observations from a re-analysis of the deposited data

Results flagged for a closer look

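Ager, Cldn18, Hp and ZsGFP went opposite ways in the 2 libraries when members were set against other C1q-high macrophages: lower by more than 2-fold in the AT2-Tracer library and higher in the BASC-Tracer library. The difference was not tested, and the second class of the BASC-Tracer library has 10 cells. Ager, a gene of alveolar type 1 cells, had a log2 ratio of 4.65 in the BASC-Tracer library (105 UMIs against 0, 95 of them in 1 cell) and -1.41 in the AT2-Tracer library. Cldn18, a lung claudin, had 4.04 (67 UMIs against 0, 63 in 1 cell) and -1.16. Haptoglobin (Hp) had 1.54 (107 UMIs against 6, 65 in 1 cell) and -1.17. The reporter ZsGFP had 4.91 (635 UMIs against 3, 296 in 1 cell) and -1.10. A second BASC-Tracer member held 199 of the 635 ZsGFP UMIs. In that library 24 of 79 members and 3 of 10 other C1q-high cells had a ZsGFP UMI. Without the cell with most UMIs in each class the BASC-Tracer values were 1.72, 0.94, 0.78 and 4.46.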

How the results depend on the processing

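No paired analysis was possible because each label has 1 library. The share of C1q-high macrophages that were members in the AT2-Tracer library was 37.0% with a minimum of 2 UMIs of the 3 genes, 27.4% with 6, and 26.6% with the rule applied to cells thinned to 3000 UMIs, which also gave 79.4% in the BASC-Tracer library. The share of kept barcodes in the AT2-Tracer library was 4.05% with 6 UMIs, 4.27% with thinned cells and 8.55% without barcodes with 2 or more Epcam UMIs, which gave 13.3% in the BASC-Tracer library. Genes 2-fold lower numbered 68 with 20 CPM added, 163 from a minimum of 20 CPM and 66 from 100 CPM, where 115 were higher; in the BASC-Tracer library 727 were higher and 328 lower.

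Of 194 named genes, 90 of them 2-fold apart in the AT2-Tracer library, 21 log2 values over 23 alternatives were counted as reversed. Many more were counted as moved: 161 of 194 in the BASC-Tracer library and 116 with the rule on thinned cells. The mean of each cell's CPM moved 107, thinning with the main classes 103 and summing all libraries 94. The remaining alternatives moved 2 to 57 each. The count of reversed values does not hold every change of sign. C1qb stood at 4396 against 3969 CPM in the AT2-Tracer library and at 3706 against 5304 CPM in the BASC-Tracer library. Sftpc stood at 1135 against 1185 CPM and at 499.5 against 195 CPM. With a minimum of 0.03% of UMIs on the 3 genes, Bgn became -2.04, Col1a1 -2.20, Col1a2 -2.23, Col3a1 -1.73, Mgp -2.91 and Sparcl1 -3.08. The collagen-rich cell had 0 UMIs of Ccl8 and Cxcl13 and 6 of Cd163 among 29260. It is under this minimum and so moved to the other C1q-high class. Col1a2 was -0.11 without barcodes of 10 or more collagen UMIs, and -0.11 without the cell with most UMIs, both alternatives added after the data were seen; under the thinned rule Col1a1 and Col1a2 were -0.03. Without Epcam barcodes Cldn18 was 0.34 and ZsGFP 0.11. Summed over all libraries Hp was 0.07 and ZsGFP 0.03. In the BASC-Tracer library Ager was 4.65, Cd24a 2.23, Cldn18 4.04, Hp 1.54, Mgl2 -2.54, Stmn1 1.13 and ZsGFP 4.91. For the other alternatives the cause was not tested. With 1 library per label, variation between animals is unknown, and the 10 other C1q-high cells of the BASC-Tracer library limit every ratio to them.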
